A study of Mus musculus with 12 samples.

Results

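A set of 10 genes named in the field as promoters or suppressors of metastasis was followed in ribosome-bound mRNA from subcutaneous tumours of 2 mouse melanoma lines. The reported promoters are Rhoc, Tmsb4x, Fn1, Cd44, Spp1 and Lgals3, and the reported suppressors are Nme1, Nme2, Cd82 and Brms1. The genes were taken by symbol from the table of read counts, in which all 10 were found among 24421 gene symbols, and all 10 passed the filter on low counts. The libraries came from tumours of the highly metastatic line B16F10 (n = 7 libraries) and the poorly metastatic line B16F0 (n = 5), both of the B16 melanoma of C57BL/6 mice. All tumours were grown for 12 days in C57BL/6 hosts of genotype Rpl22fl/flHA;Cdh5(PAC)-CreERT2. In these hosts tamoxifen, given to both groups, activates a Cre recombinase under the Cdh5 promoter, and in endothelial cells Cre turns on Rpl22, a ribosomal protein, in a form that carries the HA tag. Precipitation of the tag is meant to enrich mRNA bound to ribosomes of vessel cells. The groups share host, tag and treatment and differ in the implanted line, and no group without the tag or without tumour is among the libraries. Whether replicates are separate animals is not in the labels, so the p-values speak of the spread among these libraries, part of which may be technical.

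Metastasis genes of this kind act at different steps. Rhoc is a small GTPase that drives actomyosin contraction and cell movement, and Tmsb4x encodes thymosin beta-4, which holds actin monomers. Fn1 is the matrix protein fibronectin, Cd44 the main cell surface receptor for hyaluronan, Spp1 the secreted integrin and CD44 ligand osteopontin, and Lgals3 the sugar-binding lectin galectin-3. Among suppressors, Nme1 was described as nm23, a nucleoside diphosphate kinase with lower levels in highly metastatic melanoma clones, and Nme2 is its neighbour and close relative. Cd82, also called KAI1, is a tetraspanin of the cell surface, and Brms1 is a subunit of SIN3-histone deacetylase complexes. Several of these genes are also used by other cells of a tumour: macrophages make osteopontin and galectin-3, fibroblasts and vessel cells make fibronectin, and vessel and blood cells are rich in thymosin beta-4.

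Coding sequences of 4 members are shown from GENCODE release M21 (build GRCm38), each written 5′ to 3′ from the start codon. Nme1 (chromosome 11, coding span 93959399 to 93965933, minus strand) and Nme2 (chromosome 11, 93949932 to 93955620, minus strand) are shown because they are close relatives, so that a reader can see how far their sequences differ. Their coding sequences are 459 bases each and differ at 92 positions (79.96% identity, compared base by base without gaps). The first 150 bases follow, with the 26 positions that differ between the genes in capitals.
Nme1: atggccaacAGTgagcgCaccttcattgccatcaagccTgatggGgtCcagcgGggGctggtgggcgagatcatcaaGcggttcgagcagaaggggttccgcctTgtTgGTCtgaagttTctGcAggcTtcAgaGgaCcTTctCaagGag
Nme2: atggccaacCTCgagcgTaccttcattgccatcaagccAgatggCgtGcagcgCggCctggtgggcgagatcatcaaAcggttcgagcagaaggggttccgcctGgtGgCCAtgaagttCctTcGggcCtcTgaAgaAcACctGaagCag
The longest run of identical bases between the coding sequences was 29, and no window of 50 bases was identical. The length of the sequencing reads is not given in the sources used here.

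Lgals3 (chromosome 14, coding span 47379527 to 47385677, plus strand) is shown because it was the member that passed the comparison of the lines. Galectin-3 is known for a tail of repeated proline and glycine ahead of its lectin domain. In its first 300 coding bases the in-frame pairs CCNGGN (a proline codon followed by a glycine codon, read on the coding strand) are in capitals.
Lgals3: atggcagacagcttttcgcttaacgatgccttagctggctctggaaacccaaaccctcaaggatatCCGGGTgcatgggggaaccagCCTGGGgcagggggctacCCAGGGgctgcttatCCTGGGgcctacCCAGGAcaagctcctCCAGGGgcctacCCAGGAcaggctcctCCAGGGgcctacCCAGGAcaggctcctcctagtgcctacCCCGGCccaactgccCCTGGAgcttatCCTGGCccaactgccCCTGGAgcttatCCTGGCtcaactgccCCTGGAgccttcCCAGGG
This stretch held 16 such pairs and the remaining bases of its 795-base coding sequence held 4, while Rhoc, Tmsb4x, Cd82 and Brms1 held 0, Nme1 held 1 and Nme2 held 2. The coding sequence of Tmsb4x (chromosome X, coding span 167207504 to 167208036, minus strand), shown because this small actin-binding protein is read from 135 bases in its principal transcript (153 in the other 2), is the shortest of the 7 compared.
Tmsb4x: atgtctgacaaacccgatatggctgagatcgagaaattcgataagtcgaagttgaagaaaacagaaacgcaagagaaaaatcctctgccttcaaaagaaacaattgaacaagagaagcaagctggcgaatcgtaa

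Totals ran from 5322510 to 20569186 counts in B16F10 and from 10753106 to 17381336 in B16F0, and both groups were spread over sequencing lanes 1, 2 and 6. The precipitates were not pure endothelium, and the labelled cell type holds only in part. All 20 endothelial markers, with Cdh5 and Pecam1, were measured, with a summed level of 942 to 6142 CPM (read counts brought to one library size) in B16F10 and 1185 to 6703 CPM in B16F0. All 15 melanocytic markers were measured as well, at 9861 to 20263 and 12412 to 20608 CPM. The 20 macrophage markers summed to 42.8 to 304 and 77.1 to 324 CPM, and the 15 fibroblast markers to 414 to 2814 and 299 to 1164 CPM. Of the T and NK cell, neutrophil and keratinocyte markers 2 of 10, 1 of 7 and 1 of 8 were measured above the filter, with summed levels of at most 5.61 CPM in any library. A level in such bulk precipitates cannot tell fewer cells of a type from less RNA per cell. The 9 of 11 measured pericyte and smooth muscle markers summed to 106 to 442 and 92.0 to 378 CPM, and 3 platelet, 2 skeletal muscle and 1 adipocyte marker stayed at or below 30.1 CPM. The ribosomal RNA precursor Rn45s took 31.4% of counts in B16F10 replicate 5 and 8.91% in B16F0 replicate 5, and under 5% in each other library.

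The question put to these libraries was which ribosome-bound transcripts separate tumours of the 2 lines. Of the 10 genes, Lgals3 was higher in B16F10 by 2.41-fold (95% interval 1.64 to 3.52) and passed edgeR's quasi-likelihood test, and no member passed as lower. Spp1 was at 0.515 times its B16F0 level (95% interval 0.347 to 0.764) and Fn1 at 2.45 times (1.04 to 5.76), and neither passed after adjustment over all genes. The other promoters and all 4 suppressors were at 0.755 to 1.46 times their B16F0 level, and each of their 95% intervals included no change. With the sequencing lane in the fit 375 of 13534 genes passed at a false discovery rate of 0.05 (2.77%), 176 as higher (1.3%) and 199 as lower (1.47%). Among the 10 members the 1 higher call is a single gene. More than 2-fold either way were 2 members, Lgals3 and Fn1, and 5.98% of all genes. At an unadjusted p under 0.05 the members held 3 genes, against 14.8% of all genes. DESeq2 called the same 1 higher gene and 1 lower gene, Spp1, against 407 higher and 445 lower among all genes. The median log2 fold change was 0.027 over the members and 0.019 over all genes.

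**Figure D1:**
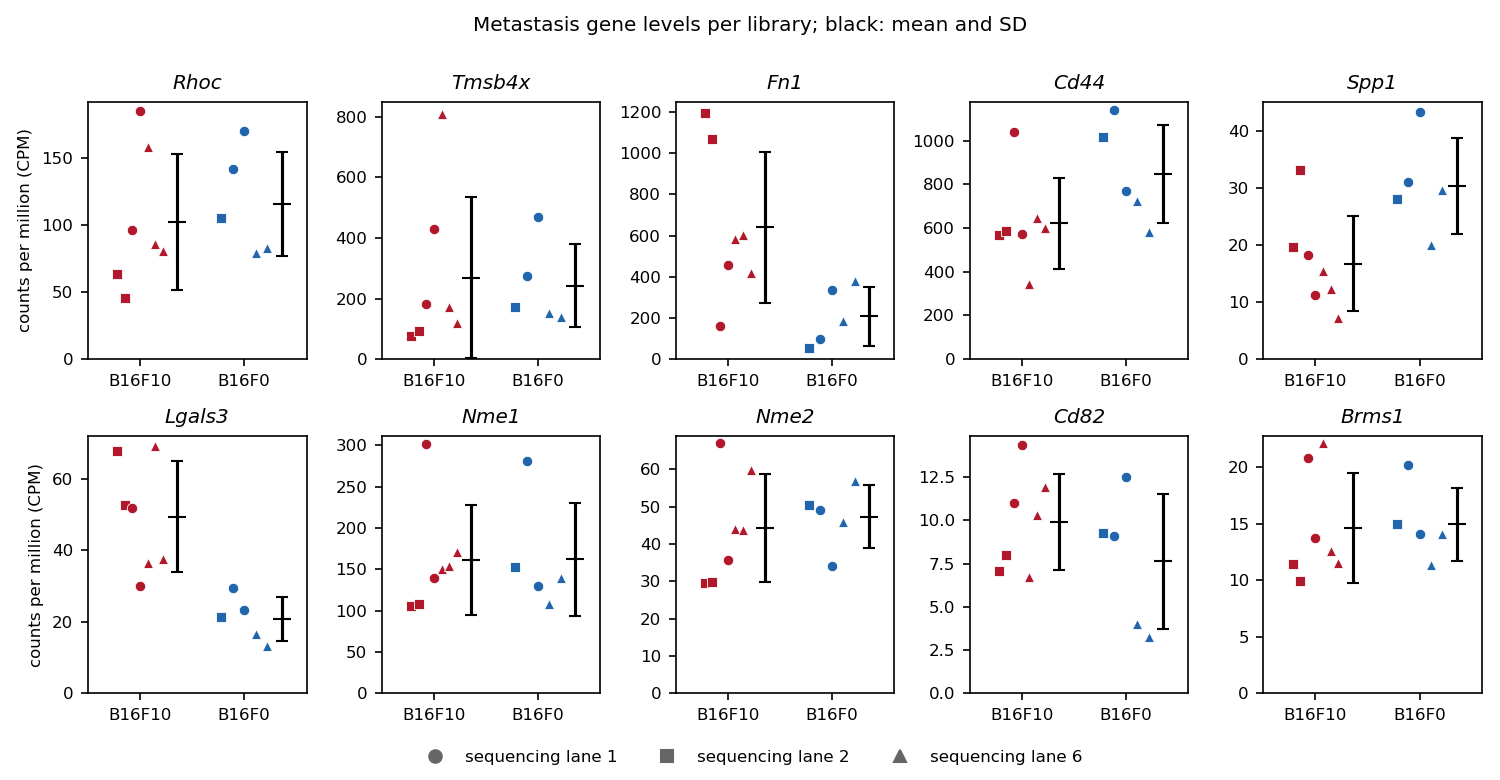
Level of each of the 10 genes in CPM (vertical axes, each from 0) for every B16F10 (red, n = 7) and B16F0 (blue, n = 5) library, with marker shape for the sequencing lane and black bars for the mean and SD of each group. For Lgals3 the 7 B16F10 libraries lie at 30.1 to 69.1 CPM, above the B16F0 libraries at 13.2 to 29.5 CPM, while the groups overlap for the other 9 genes.

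Among the reported promoters, the galectin gene Lgals3 (chromosome 14, 47367751 to 47386160) stood at 30.1 CPM in the lowest, 51.9 in the median and 69.1 in the highest B16F10 library. In B16F0 replicates 1 to 5 it stood at 21.2, 29.5, 23.2, 16.7 and 13.2 CPM. The groups did not overlap, although the lowest B16F10 library, replicate 4, lay close to the highest B16F0 library, replicate 2. Groups that do not overlap were found for 2.73% of all tested genes. The means were 49.4 ± 15.4 CPM (SD, n = 7) and 20.8 ± 6.25 CPM (SD, n = 5). The log2 fold change of Lgals3 was 1.27 ± 0.25 (SE; edgeR adjusted p = 0.0168), rank 220 of 13534 by p. Within lanes 1, 2 and 6 the mean log2 CPM of B16F10 was above that of B16F0 by 0.59, 1.49 and 1.61. The authors' deposited table gives Lgals3 a log2 fold change of 1.24 and an FDR of 0.0104.

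The call of Lgals3 depended on single libraries, while its size did not. It was lost without B16F0 replicate 1 (log2 fold change 1.19, adjusted p = 0.0769 by edgeR), without B16F0 replicate 4 (1.22, 0.0809) and without B16F0 replicate 5 (1.14, 0.0705). It was also lost without the 3 libraries of lane 2 (1.20, 0.114) and without the 2 libraries with Rn45s over 5% of counts (1.15, 0.0863). Over 32 other settings the log2 fold change ranged from 1.11 to 1.51 and the adjusted p from 7.0e-05 to 0.114.

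Spp1, the osteopontin gene (chromosome 5, 104435118 to 104441050), had lower levels in most B16F10 libraries and did not pass. It stood at 7.28 CPM in the lowest, 15.4 in the median and 33.2 in the highest B16F10 library, and at 28.1, 31.1, 43.4, 19.96 and 29.7 CPM in B16F0 replicates 1 to 5. In B16F10, 6 of 7 libraries were below every B16F0 library, and the exception, B16F10 replicate 2, was above 4 of the 5. The means were 16.8 ± 8.39 CPM (SD, n = 7) and 30.4 ± 8.43 CPM (SD, n = 5), giving Spp1 a log2 fold change of -0.96 ± 0.26 (SE; adjusted p = 0.0800 by edgeR). The within-lane differences of Spp1 were -1.35, -0.13 and -1.11 in lanes 1, 2 and 6. Spp1 passed as lower in 8 of 32 other settings, among them the fit with the library name prefix, which both lines share in part, in place of the lane (-1.20, edgeR adjusted p = 0.0262), DESeq2 (-0.96, DESeq2 adjusted p = 0.0135), the fibroblast score as a covariate (-1.33, edgeR adjusted p = 0.0138) and the fits without B16F10 replicate 2 (-1.07, 0.0434) or without B16F0 replicate 1 (-1.20, 0.0416). In the prefix fit the libraries of lane 2 do not compare the lines, because no prefix there holds both lines. The adjusted p of Spp1 ranged from 0.0135 to 0.392 over the settings. The authors' deposited table gives Spp1 a log2 fold change of -0.96 and an FDR of 0.0704. In the annotation 18.75% of the exon bases of Spp1 are shared with another gene model on the same strand, Gm42793.

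Fn1, the fibronectin gene (chromosome 1, 71585520 to 71653200), varied widely within both lines. It stood at 160 CPM in the lowest, 583 in the median and 1194 in the highest B16F10 library, and at 52.8, 96.0, 334, 186 and 378 CPM in B16F0 replicates 1 to 5. The 2 highest libraries were B16F10 replicates 1 and 2 and the lowest was B16F0 replicate 1, which are the 3 libraries of lane 2. The within-lane difference of mean log2 CPM was 4.42 in lane 2, against 0.59 in lane 1 and 0.99 in lane 6. In lane 2 the B16F10 libraries and the B16F0 library carry different name prefixes, so line and prefix cannot be told apart there. With the prefix in place of the lane, a fit in which lane 2 does not compare the lines, the log2 fold change of Fn1 was 0.77 ± 0.21 (SE; edgeR adjusted p = 0.0591). A test of whether the fold change of Fn1 differed between lanes, added after these values were seen, gave an edgeR unadjusted p of 0.00934 and an adjusted p of 0.636. By the same edgeR test Cd82 had an unadjusted p of 0.0171 and an adjusted p of 0.636, and 0 of 13534 genes passed. The means of Fn1, 641 ± 367 CPM (SD, n = 7) and 209 ± 143 CPM (SD, n = 5), gave a log2 fold change of 1.29 ± 0.57 (SE; adjusted p = 0.308 by edgeR). The biological coefficient of variation of Fn1, the relative spread between libraries left after lane and line, was 0.578, higher than in 91.1% of tested genes. Without lane 2 the log2 fold change of Fn1 was 0.75 (edgeR adjusted p = 0.637). Leaving out single libraries gave 0.74 (without B16F0 replicate 1) to 1.77 (without B16F0 replicate 3), none of them called (edgeR adjusted p from 0.106 to 0.537).

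Marker levels of other cells differed among the same libraries, and their part in the difference of Fn1 was not tested. The fibroblast score, the mean log2 CPM of the 15 markers, was 5.38 and 5.62 in B16F10 replicates 1 and 2 and 2.16 to 4.36 in the other 10 libraries, with 3.42 in B16F0 replicate 1, the library of lowest Fn1, and 4.36 in B16F10 replicate 3, the lowest of its line. Of the 15 fibroblast markers 13 had a positive log2 fold change (median 0.81) and 1, Fstl1, passed as higher in B16F10 (log2 fold change 1.39, edgeR adjusted p = 0.0466). Of the 9 measured pericyte and smooth muscle markers 9 had positive values (median 0.72) and 0 passed. Of the 15 melanocytic markers 2 had positive values (median -0.27) and 1, the pigment gene Oca2, passed as lower (log2 fold change -1.10, edgeR adjusted p = 0.00379). With the fibroblast score as a covariate the log2 fold change of Fn1 was 0.96 ± 0.51 (SE; adjusted p = 0.596 by edgeR), and with the melanocytic score it was 0.29 ± 0.41 (SE; edgeR adjusted p = 0.716).

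Cd44, the hyaluronan receptor (chromosome 2, 102811141 to 102901665), stood at 345 CPM in the lowest, 587 in the median and 1041 in the highest B16F10 library. In B16F0 replicates 1 to 5 it stood at 1018, 1138, 769, 726 and 584 CPM. In B16F10, 6 of 7 libraries lay below 4 of the 5 B16F0 libraries, and the remaining one, replicate 3, lay above 4 of them. The log2 fold change of -0.41 ± 0.22 (SE; 95% interval -0.87 to 0.062) did not pass (edgeR adjusted p = 0.418), and the within-lane differences were -0.28, -0.82 and -0.35. In the authors' deposited table Cd44 has a log2 fold change of -0.43 and an FDR of 0.268. Counts per symbol do not separate the splice forms of Cd44, whose 8 coding transcripts in the basic GENCODE set have coding lengths from 1098 to 2343 bases.

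Rhoc and Tmsb4x, the promoters of the actin cytoskeleton, differed more among libraries of one line than between lines. Rhoc (chromosome 3, 104788375 to 104794459) stood at 45.5 CPM in the lowest, 85.5 in the median and 185 in the highest B16F10 library, and at 105, 141, 170, 79.3 and 82.9 CPM in B16F0 replicates 1 to 5. Its log2 fold change was -0.12 ± 0.26 (SE; 95% interval -0.68 to 0.44; edgeR adjusted p = 0.885). Tmsb4x (chromosome X, 167207093 to 167209315) stood at 77.9, 172 and 810 CPM in the lowest, median and highest B16F10 library and at 174, 276, 469, 154 and 139 CPM in B16F0 replicates 1 to 5. Its log2 fold change was 0.14 ± 0.52 (SE; 95% interval -0.99 to 1.27; edgeR adjusted p = 0.940). The 3 highest libraries of both genes were the same, B16F10 replicates 4 and 5 and B16F0 replicate 3, which are also the 3 of highest endothelial score. Of these, B16F10 replicate 4 and B16F0 replicate 3 are both of lane 1 and carry the same prefix in their library names. For B16F10 replicate 4 and B16F0 replicate 3, whether prefix or endothelial content goes with their levels cannot be told apart. B16F10 replicate 5 is of lane 6 and carries no such prefix. Without the 3 libraries Rhoc and Tmsb4x had log2 fold changes of -0.40 and -0.45 (edgeR adjusted p = 0.289 and 0.259).

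**Figure D2:**
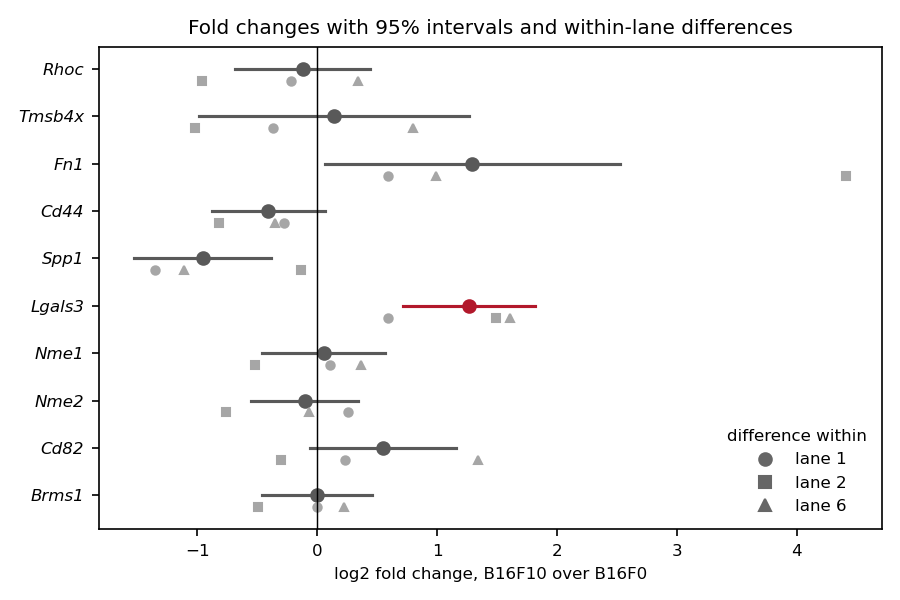
Log2 fold change of B16F10 over B16F0 (horizontal axis) for each of the 10 genes, with its 95% interval from edgeR as a line (red where the adjusted p was under 0.05) and, in grey below it, the difference of mean log2 CPM within lanes 1, 2 and 6. The interval of Lgals3 runs from 0.72 to 1.82, and the lane 2 difference of Fn1, 4.42, lies far from those of lanes 1 and 6.

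None of the reported suppressors was called between the lines. Nme1 (chromosome 11, 93956979 to 93968521) stood at 105, 150 and 301 CPM in the lowest, median and highest B16F10 library and at 152, 280, 129, 108 and 140 CPM in B16F0 replicates 1 to 5. The group means were nearly equal, 161 ± 66.1 CPM (SD, n = 7) and 162 ± 68.2 CPM (SD, n = 5), with a log2 fold change of 0.056 ± 0.24 (SE; 95% interval -0.46 to 0.57; edgeR adjusted p = 0.947). The highest library of each group, B16F10 replicate 3 and B16F0 replicate 2, are both of lane 1 and carry the same prefix in their library names. The lower bound of the interval is 0.727 times the B16F0 level.

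Nme2 (chromosome 11, 93949814 to 93956259), the adjoining kinase gene, stood at 29.7, 43.8 and 67.0 CPM in the lowest, median and highest B16F10 library and at 50.5, 49.1, 34.0, 45.8 and 56.8 CPM in B16F0 replicates 1 to 5. The B16F0 range lay within the B16F10 range. Its log2 fold change was -0.10 ± 0.21 (SE; 95% interval -0.55 to 0.34; edgeR adjusted p = 0.876). Exons of Nme1 and Nme2 are shared on the same strand with the readthrough gene Gm20390, over 12.5% and 48.9% of their exon bases. Gm20390 has no row in the count table, so how reads of such a transcript were counted is not known.

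Cd82, the tetraspanin gene (chromosome 2, 93419111 to 93463140), was the least abundant of the 10, at 6.72, 10.3 and 14.3 CPM in the lowest, median and highest B16F10 library and 9.30, 9.07, 12.5, 4.003 and 3.25 CPM in B16F0 replicates 1 to 5. The B16F0 libraries of lane 6, replicates 4 and 5, lay below all others. The log2 fold change of Cd82 was 0.55 ± 0.28 (SE; edgeR adjusted p = 0.398), 1.46-fold with a 95% interval of 0.958 to 2.23, and the within-lane differences were 0.23, -0.30 and 1.34. Brms1 (chromosome 19, 5041354 to 5049917) stood at 9.90, 12.6 and 22.1 CPM in the lowest, median and highest B16F10 library and at 15.0, 20.2, 14.1, 11.3 and 14.0 CPM in B16F0 replicates 1 to 5. Its groups lay almost on top of each other, with a log2 fold change of -0.0014 ± 0.21 (SE; 95% interval -0.46 to 0.46; edgeR adjusted p = 0.998). In the annotation 79.0% of the exon bases of Brms1 are shared with a second protein-coding gene model on the same strand, AC124502.3, which has no row in the count table.

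Per length, the levels of the 10 genes spanned a wide range, from the actin monomer binder to the tetraspanin. In CPM per kilobase of annotated exon, the B16F10 libraries held Tmsb4x at 196 ± 194 (SD, n = 7), Cd44 at 91.9 ± 30.7, Rhoc at 63.1 ± 31.4, Fn1 at 54.8 ± 31.4 and Nme1 at 48.3 ± 19.8. The lower levels were those of Nme2 at 37.8 ± 12.4, Lgals3 at 26.6 ± 8.29, Spp1 at 10.2 ± 5.09, Brms1 at 8.33 ± 2.77 and Cd82 at 3.296 ± 0.931 CPM per kilobase. Each pair of neighbours from Tmsb4x to Nme2 differed by less than the larger of their SDs. In B16F0 the order differed: Fn1 stood at 17.9 ± 12.2 (SD, n = 5), Spp1 at 18.5 ± 5.12 and Lgals3 at 11.2 ± 3.37 CPM per kilobase, so that Lgals3 lay below Spp1 there and above it in B16F10.

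The levels of several members went with the summary scores of endothelial or melanocytic markers, in fits that take 1 slope for both lines. The slope of each gene on a score was fitted with limma-voom with lane and group in the model, in log2 CPM per unit of score, and a gene was said to follow a score where its slope exceeded 0.5 at an adjusted p under 0.05. Tmsb4x followed the endothelial score with a slope of 0.86 ± 0.16 (SE; limma adjusted p = 0.00516) and was the 1 member to do so, against 4.02% of all genes. The next slope was that of Rhoc, 0.40 ± 0.11 (SE; limma adjusted p = 0.0683). Cd44, Nme1 and Nme2 had slopes of -0.32, -0.30 and -0.26 on this score (limma adjusted p = 0.0984, 0.190 and 0.211), and Lgals3 and Spp1 had slopes of -0.19 and 0.052 (0.451 and 0.882). Tmsb4x followed the score in each of the 12 fits that left out 1 library, but without B16F10 replicate 5, the library richest in Rn45s, its slope was 0.53 (limma adjusted p = 0.0228), against 0.82 to 0.98 in the other 11.

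Cd44, Nme1 and Nme2 followed the melanocytic score, with slopes of 1.35 ± 0.29, 1.55 ± 0.32 and 1.26 ± 0.31 (SE; limma adjusted p = 0.00645, 0.00519 and 0.0114), against 15.6% of all genes. Fn1 moved against this score with a slope of -3.50 ± 0.79 (SE; limma adjusted p = 0.00794), as 16.9% of all genes did with slopes below -0.5. The score spans a narrow range, 8.17 to 8.92 in B16F10 and 8.61 to 9.06 in B16F0, and it was lower on average in B16F10 (8.42 ± 0.26 against 8.81 ± 0.22, SD, n = 7 and 5). With the score as a covariate the log2 fold change of Cd44 was 0.081 ± 0.17 (SE; edgeR adjusted p = 0.811) and that of Nme1 was 0.64 ± 0.18 (SE; edgeR adjusted p = 0.0681). Nme1 and Cd44 followed the score in each of the 12 fits that left out 1 library, and Nme2 in 11, its call being lost without B16F10 replicate 3 (slope 0.95, limma adjusted p = 0.157). Without that library Fn1 did not pass either (slope -3.89, limma adjusted p = 0.0554).

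**Figure D3:**
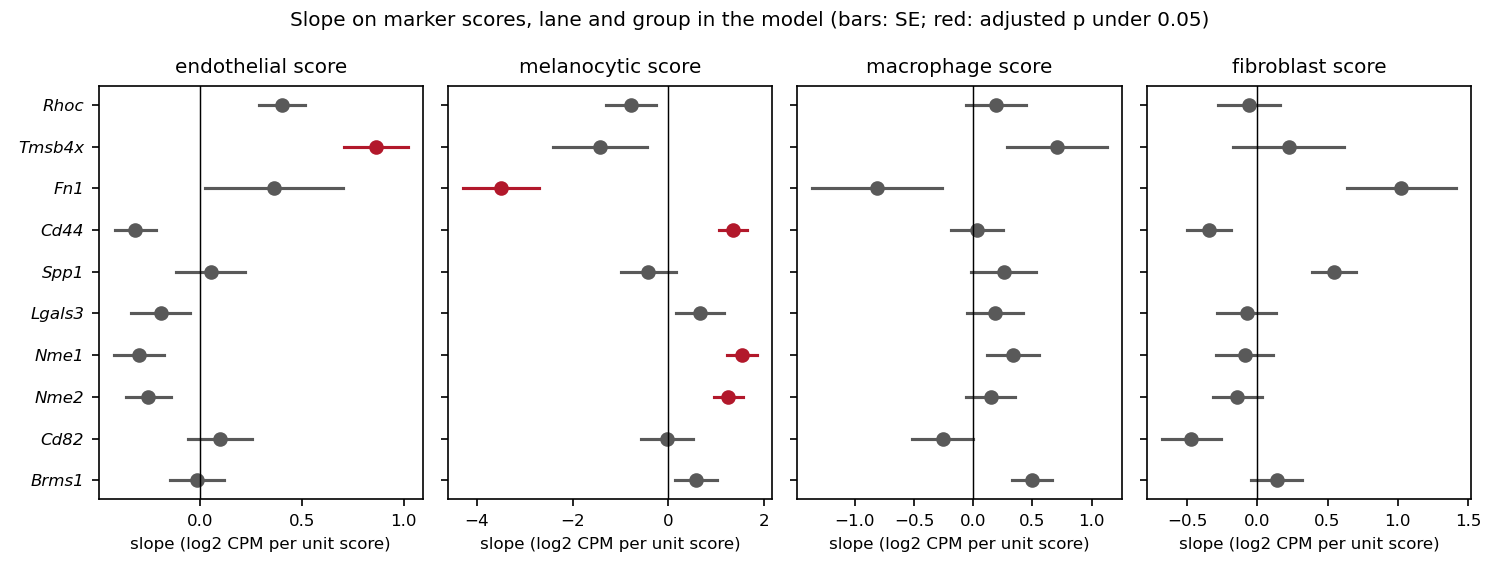
Slope of each gene's log2 CPM on the endothelial, melanocytic, macrophage and fibroblast scores (4 panels, horizontal axes with different ranges), with bars for the SE and red for a limma adjusted p under 0.05. Tmsb4x stands out on the endothelial score, and Cd44, Nme1 and Nme2 on one side and Fn1 on the other on the melanocytic score.

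Macrophages are known sources of Spp1 and Lgals3, but neither gene followed the macrophage score, with slopes of 0.26 ± 0.27 and 0.18 ± 0.24 (SE; limma adjusted p = 0.728 and 0.777). No member did, against 0.00739% of all genes (1 gene), so this score separated hardly any genes in these libraries. Without B16F10 replicate 7, the library of the lowest macrophage score, 2 members followed it, Nme1 and Brms1 (limma adjusted p = 0.0161 and 0.0349), against 7.88% of all genes. In that fit Fn1 passed in the opposite direction (slope -2.05, limma adjusted p = 0.0285), as 9.13% of all genes did with slopes below -0.5. On the fibroblast score, which 0.207% of genes followed, Fn1 and Spp1 had the steepest slopes, 1.02 ± 0.39 and 0.55 ± 0.16 (SE), and neither passed (limma adjusted p = 0.296 and 0.211). Slopes below -0.5 on the fibroblast score passed for 0 members and 0.0222% of genes. Spp1 did follow it without the lane in the model (slope 0.51, limma adjusted p = 0.0287). At an unadjusted limma p under 0.05 the macrophage score had 1 member, Brms1, against 8.22% of all genes. The fibroblast score had 4, against 13.7% of all genes: Fn1 and Spp1 with the positive slopes above, and Cd44 and Cd82 with negative ones (-0.34 and -0.47).

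**Figure D4:**
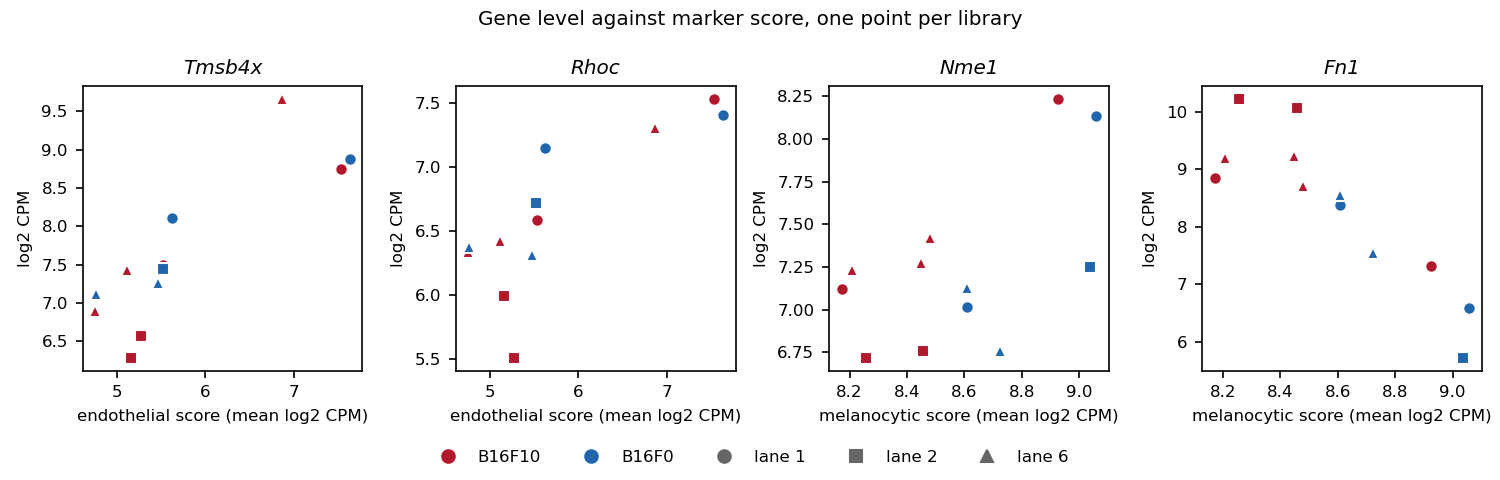
Log2 CPM of Tmsb4x and Rhoc against the endothelial score and of Nme1 and Fn1 against the melanocytic score, 1 point per library, red for B16F10 and blue for B16F0, with marker shape for the lane. The 3 libraries of endothelial score 6.87 to 7.63 carry the 3 highest levels of Tmsb4x and Rhoc, and for Nme1 the 2 highest points are B16F10 replicate 3 and B16F0 replicate 2.

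Among genes of similar profile, those whose log2 CPM tracked a member most closely over the 12 libraries were taken as a description, from 9054 genes of at least 10 CPM. Differences in lane, depth and cell content among the libraries can make profiles alike, and those of lane and cell content were not removed. The difference between the lines was not removed either, so genes that differ between lines in the same direction also track each other. For Lgals3 the closest genes were Itgb5, Naalad2 and Fam198b (Pearson r of 0.907, 0.895 and 0.890). For Tmsb4x they were Ecscr, F11r and Hcls1 (0.960, 0.955 and 0.954), and for Rhoc S100a13, Fabp4 and Sh3bp5 (0.975, 0.971 and 0.957). For Fn1 they were Tln1, Limd1 and Bcl2 (0.964, 0.945 and 0.927), and for Spp1 Ctnnd1, Snrnp200 and Cpne4, with the lowest values of the set (0.849, 0.848 and 0.813). For Cd44 they were Mrps30, Alg9 and Nae1 (0.984, 0.980 and 0.979), and for Nme1 Hspa9, Ebna1bp2 and Ran (0.963, 0.958 and 0.958). Nme2 was tracked by Rpl7, Srpr and Tyw1 (0.940, 0.932 and 0.925), Cd82 by Ppp3ca, Zyg11b and Fam129a (0.916, 0.914 and 0.892) and Brms1 by Arhgdia, 2310022B05Rik and Anp32a (0.971, 0.962 and 0.961).

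The counts of called genes among partners of the promoters, each of 0 or 1 here, stand beside the 2.77% called among all genes. Of 16 measured fibronectin receptor and matrix assembly genes 1 rose and 0 fell (median log2 fold change 0.044), and of 8 measured genes of the osteopontin family and its receptors 1 rose and 0 fell (median -0.0013). In both lists the gene was Itgb5, the integrin beta chain that pairs with the alpha-v chain. Itgb5 stood at 8.29 to 21.3 CPM in B16F10 and 2.83 to 6.71 CPM in B16F0, without overlap, with a log2 fold change of 1.72 ± 0.28 (SE; adjusted p = 0.00442 by edgeR). Itgb5 passed in each of 32 other settings, with an adjusted p of at most 0.0372. Of 17 CD44 partners and hyaluronan enzymes 0 rose and 1 fell (median -0.13), the sheddase gene Adam10, with means of 274 ± 61.6 and 448 ± 34.2 CPM (SD, n = 7 and 5), a log2 fold change of -0.72 ± 0.16 (SE; adjusted p = 0.0341 by edgeR). The call of Adam10 was lost in 17 of 32 other settings, among them the fits that left out B16F10 replicate 1, 2, 4, 5, 6 or 7 or B16F0 replicate 1, 4 or 5 (edgeR adjusted p from 0.0509 to 0.146).

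Of 9 measured galectins and galectin ligands other than Lgals3, 0 passed, 2 had positive log2 fold changes and the median was -0.30. The secreted ligand gene Lgals3bp had a log2 fold change of -0.55 ± 0.17 (SE; adjusted p = 0.136 by edgeR) and the most studied relative Lgals1 one of -0.41 ± 0.20 (SE; 0.374), so neither passed, and only Lgals3bp had an unadjusted edgeR p under 0.05. Of 15 actin monomer binders and actins 0 passed (median 0.038, 2 genes at an unadjusted edgeR p under 0.05). The smallest p there were those of the profilin gene Pfn2 (0.38 ± 0.15, SE; edgeR adjusted p = 0.240) and the destrin gene Dstn (-0.35 ± 0.16, SE; 0.330).

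Relatives of the suppressors are taken next. Of 8 other measured genes of the NME family and its partners 0 passed, also at an unadjusted edgeR p under 0.05 (median -0.048), with Prune2 at 0.59 ± 0.28 (SE; edgeR adjusted p = 0.353) and Nme6 at 0.20 ± 0.16 (SE; 0.631). Of 25 tetraspanins and partners 1 rose and 0 fell (median -0.097). This was Tspan5, at 29.7 ± 6.75 and 18.4 ± 3.66 CPM (SD, n = 7 and 5), with a log2 fold change of 0.66 ± 0.15 (SE; adjusted p = 0.0324 by edgeR) that was no longer called in 17 of 32 other settings. Its call was kept by single omissions only of B16F10 replicate 3 and B16F0 replicate 3, and was lost without any other library (edgeR adjusted p from 0.0565 to 0.130). Of 18 genes listed for BRMS1 and histone deacetylase complexes, not all of them SIN3 subunits, 0 passed (median 0.036, 2 genes at an unadjusted edgeR p under 0.05). Mta1 was at 0.40 ± 0.13 (SE; edgeR adjusted p = 0.150) and Sap18 at -0.35 ± 0.12 (SE; 0.186).

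Wider lists of genes reported in metastasis were counted in the same way. Of 21 other measured suppressors 0 passed (median 0.031, 1 gene at an unadjusted edgeR p under 0.05), and the smallest p were those of the tropomyosin gene Tpm1 (0.46 ± 0.14, SE; edgeR adjusted p = 0.117) and the protease inhibitor gene Timp1 (0.44 ± 0.22, SE; 0.395). Of 35 other measured promoters 1 rose and 1 fell (median -0.035). Loxl2, an enzyme that cross-links collagen, rose from 23.7 ± 4.001 CPM (SD, n = 5) in B16F0 to 43.8 ± 8.95 CPM (SD, n = 7) in B16F10, with a log2 fold change of 0.87 ± 0.16 (SE; adjusted p = 0.00955 by edgeR), and its call was lost in 2 of 32 other settings, one of them the fit without lane 2 (0.71, edgeR adjusted p = 0.0598). Hpse, the heparanase gene, was lower at 123 ± 28.5 against 199 ± 31.0 CPM (SD, n = 7 and 5), with a log2 fold change of -0.72 ± 0.17 (SE; adjusted p = 0.0473 by edgeR), and its call was lost in 19 of them. For Hpse these included the fits without any 1 library but B16F10 replicates 5 and 7 and B16F0 replicate 3 (edgeR adjusted p from 0.0544 to 0.185). Over all genes DESeq2 called 407 as higher and 445 as lower, limma-voom 174 and 203, and edgeR 176 and 199. List counts by DESeq2 therefore stand against a larger share than those by edgeR. Of the lists with an edgeR call, DESeq2 called 3 genes of the fibronectin list, 2 of the osteopontin list, 1 each of the CD44 and tetraspanin lists and 3 of the promoter list, and limma-voom 1, 1, 1, 1 and 2. Among the 5 lists described here with no edgeR call, DESeq2 called 1 gene each of the BRMS1 and histone deacetylase list and the suppressor list and 0 of the actin, galectin and NME lists, and limma-voom called 0 in all 5.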

How the data were processed

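For the 12 libraries, made with the ScriptSeq kit per the labels, the authors deposited raw counts of reads, as whole numbers, for each gene symbol. The submitters' processing notes name cutadapt 1.16, STAR 2.2.1, featureCounts 1.6.0, edgeR, R 3.3.2 and the build mm10, while annotation and strand setting are not stated there, so reads of near-identical or overlapping genes may be split between symbols. The comparison table the authors deposited (log2 fold changes and FDR) uses a decimal comma, read as a decimal point. Their normalized table was not used, because its decimal marks are lost.

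Of 24421 symbols 13534 passed filterByExpr of edgeR 4.0.16 with a minimum count of 10. The quasi-likelihood F test of edgeR (R 4.3.3) was run on TMM-scaled counts with lane and line as terms, Benjamini-Hochberg adjustment over all tested genes and a false discovery rate of 0.05. An SE was taken as the log2 fold change over the root of its F value. Scores are mean log2 CPM of marker lists, and slopes on them were fitted with limma 3.58.1. Other settings used other scalings, filters, covariates and omitted libraries, DESeq2 1.42.0 and limma-voom. Named were all 10 genes, the called genes of each list (at most 6) or otherwise the 2 of smallest p, and the 3 genes of most similar profile. The members, lists and settings were chosen with earlier results of these data known. The tests were tried on simulated counts. The result of 1 gene list is not reported here. Within groups every pair of libraries differed by more than counting error. The most alike were B16F10 replicates 1 and 2, with a chi-square per degree of freedom of 8.23, against 28.6 for the next pair, B16F10 replicates 6 and 7. B16F10 replicates 1 and 2 share lane 2 and the prefix of their library names. Gene positions and lengths come from GENCODE release M21 (GRCm38, the same build as mm10). Depth limits the precision most for genes of few CPM in B16F10 replicate 1, the shallowest library with 5322510 counts.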

Additional observations from a re-analysis of the deposited data

Results flagged for a closer look

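Nme1 had 1 library far above the rest in each group. In B16F10 replicate 3 it stood at 300.9 CPM, against 171 CPM in the next library, a gap of 0.664 of the group's range and above Dixon's critical value for 7 libraries. In B16F0 replicate 2 it stood at 280.4 CPM, against 152 CPM in the next, a gap of 0.743 of the range and above the critical value for 5 libraries. Both libraries are of lane 1 and share the prefix of their library names. Of the 20 groups of values examined (10 genes in 2 groups) these 2 stood out this way. For independent, normally distributed values chance gives about 1 in 20, a rate that CPM of genes from the same libraries need not follow. The cause was not tested.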

How the results depend on the processing

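Of 32 other settings none reversed the direction of Lgals3, Spp1, Fn1 or Cd82. The counts of genes higher and lower in B16F10, 176 and 199 as reported, were 30 and 28 with a replicate block in place of the lane, 325 and 305 with the library name prefix, 407 and 445 with DESeq2, 289 and 354 at a false discovery rate of 0.1, 111 and 125 without the 2 Rn45s-rich libraries (over 5% of counts) and 96 and 81 without lane 2. Higher genes were 333 with the melanocytic score, and lower genes 131 without the lane term, 132 with library size scaling and 98 with the fibroblast score. Leaving out 1 library gave 104 to 199 higher and 99 to 247 lower genes. Members called higher, 1 as reported, were 0 with the replicate block (Lgals3 log2 fold change 1.20, edgeR adjusted p = 0.0642), without the Rn45s-rich libraries and without lane 2, and 0 to 1 without single libraries. Members called lower, 0 as reported, were 1 (Spp1) with the prefix, no filter, DESeq2 and a false discovery rate of 0.1. They were also 1 (Spp1) with the fibroblast score or the log2 CPM of the gene Ddx3y as a covariate, and 0 to 1 without single libraries. Members following the endothelial score were 1 to 2 and the macrophage score 0 to 2 without single libraries, the melanocytic score 2 to 4, and the fibroblast score 1 without the lane term.

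The labels do not say that replicate numbers pair libraries, and the few correlations that follow cannot decide it. Deviations of same-numbered libraries correlated at -0.27, -0.27, -0.24, -0.29 and 0.32 for numbers 1 to 5, and 1 of the 5 B16F10 libraries correlated best with its own number. The remaining reversals concern log2 fold changes that did not pass. Rhoc was 0.12 with the prefix and 0.17 without lane 2 (-0.28 to 0.15 without single libraries). Tmsb4x was -0.10 with the replicate block, -0.013 with limma-voom, -0.13, -0.62 and -0.27 with the endothelial, melanocytic and fibroblast scores, -0.47 without the Rn45s-rich and -0.45 without the endothelial-rich libraries (-0.36 to 0.57 without single libraries). Cd44 was 0.081 with the melanocytic score. Nme1 was -0.0057 without the lane term, -0.041 with the replicate block and -0.0057 with no filter (-0.12 to 0.24 without single libraries). Nme2 was 0.087 with the prefix, 0.35 and 0.010 with the melanocytic and fibroblast scores and 0.12 without lane 2 (-0.29 to 0.10). Brms1 was 0.022 with the replicate block, 0.15 with the prefix, 0.046 with upper quartile and 0.0039 with library size scaling, 0.0064 with the CPM filter, 0.19 with the melanocytic score and 0.17 without lane 2 (-0.14 to 0.15). The cause of these changes was not tested.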
